A study of Mus musculus with 20 samples.

Results

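Mammary glands of mice that later had a mammary tumor were compared with glands of mice that did not, gene by gene, over all 20 animals of the series. The labels gave the outcome of every animal, 10 with a later tumor and 10 without, and no measured value entered the choice. All animals were female FVB/N mice, heterozygous for NRL-TGFa, a transgene of line 1372-1 in which the neu-related lipocalin promoter drives transforming growth factor alpha in the mammary gland. Each received a subcutaneous implant at 8.5 weeks of age, which held 5 mg tamoxifen or carrier alone (placebo). Tamoxifen is a selective oestrogen receptor modulator. A single number 4 gland without a tumor was taken at 20.5 to 21 weeks, 4 weeks after treatment ended, and the mice were then watched for tumors for up to 2 years of age. Every animal carried the transgene, so the comparison holds no gland without it, and each array read 1 gland of 1 animal.

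Outcome and treatment overlapped in part. Of the 10 placebo animals 7 had a later tumor and 3 did not, and of the 10 tamoxifen animals 3 had a later tumor and 7 did not (two-sided Fisher's exact p = 0.179). The outcome was therefore tested without and with treatment as a covariate. Expression is given on the log2 scale of the deposited array values, so a difference of 1 is a 2-fold change. A gene is named as having risen or fallen where the limma test, adjusted by Benjamini-Hochberg over all 12499 genes tested, gave an adjusted p under 0.05 without the covariate. Ranges are written as lowest, median and highest of the 10 animals, and animals are named by treatment and number.

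The mammary gland is a branched tree of epithelial ducts in a bed of fat. Its inner, luminal layer holds progenitors that give rise to alveolar cells, which make milk under prolactin acting through the transcription factor Stat5, and cells that sense oestrogen and progesterone. A contractile basal layer surrounds it, and fibroblasts, adipocytes, vessels and immune cells form the stroma. Transforming growth factor alpha binds the EGF receptor and drives growth of this epithelium. In whole tissue, more cells of a type and more RNA per cell cannot be told apart.

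The arrays were alike in overall level, with medians from 6.82 to 6.89 and pairwise correlations from 0.977 to 0.997, and no 2 arrays held identical values. Placebo animals 7 and 8, both with a later tumor, stood apart on the first principal component, at -30.94 and -41.13. That component held 31.9% of the variance. Placebo animal 9, also with a later tumor, came next at -14.64, and placebo animal 4 followed at -7.19. Medians without placebo animals 7, 8 and 9 are given beside many of the lists. The adipocyte hormone gene Adipoq was read at 13.79 to 14.21 and the epithelial adhesion gene Epcam at 9.58 to 12.33 over the 20 glands, both above the level of 6.85 used as the filter. Skeletal muscle RNA was uneven, with the muscle creatine kinase gene Ckm from 6.80 to 12.76.

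Without the covariate 29 genes passed the threshold, which is 0.232% of those tested. Of these, 25 rose (0.2%) and 4 fell (0.032%) in glands of animals with later tumors, the lowest adjusted p being 0.0123. Over all genes tested the median difference was -0.01, and 45.1% of genes were higher with a later tumor. At an unadjusted limma p under 0.05 stood 849 genes that were higher (6.79%) and 1211 that were lower (9.69%). Leaving out 1 animal at a time gave from 1 to 118 called genes, with 118 without tamoxifen animal 1 and 1 without placebo animal 5 or tamoxifen animal 6, 7 or 9. Without placebo animals 7, 8 and 9, 7 genes passed, of which 1 (Csn1s1) was among the 29.

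With treatment as a covariate 0 genes passed (0% of those tested, smallest adjusted p 0.0703). At an unadjusted p under 0.05 stood 440 higher (3.52%) and 709 lower genes (5.67%). All 29 genes kept their direction in that fit. Their differences were 74.9% to 96.2% of those without the covariate (median 80.5%), and the median standard error was 94.2% of its former size. Their adjusted p ran from 0.0703 to 0.31, while the largest unadjusted p among them was 0.000898. Within placebo animals and within tamoxifen animals, the difference of group means had the same direction for all 29, and it was larger in size among placebo animals for 22 of them. The 29 were chosen by their difference over these same animals, so a shared direction in parts of them is no independent support. The outcome by treatment interaction passed for 0 genes (smallest adjusted p 0.26, 565 genes at an unadjusted p under 0.05). Among the 29, the unadjusted interaction p was under 0.05 for 3 genes, Csn1s1 (0.00365), Aldoc (0.0403) and Postn (0.0462), and the smallest adjusted value was 0.938.

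**Figure D1:**
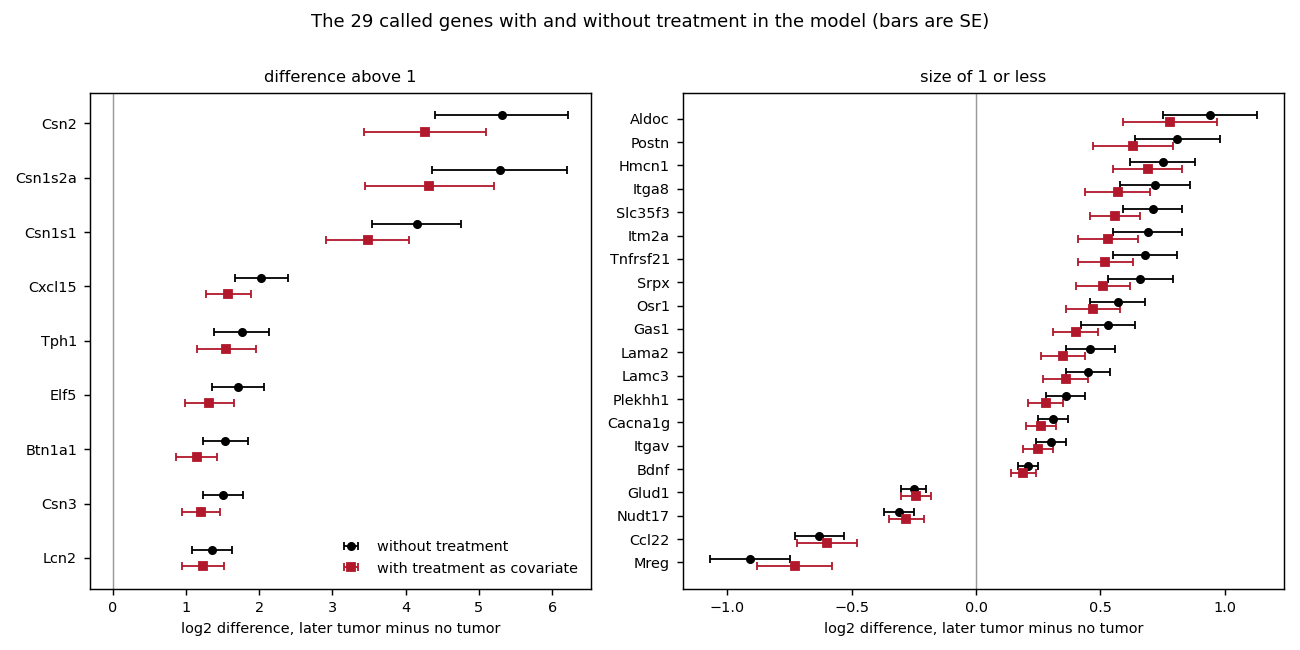
Each of the 29 called genes is shown by its log2 difference, later tumor minus no tumor, with its SE, without treatment in the model (circles) and with it (squares). Differences above 1 are on the left and those of size 1 or less on the right, on separate linear axes. The squares lie nearer to 0 than the circles for all 29 genes, on the same side of 0.

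Milk caseins gave the 3 largest differences among the 29 genes. Csn1s1, an alpha-casein gene, was read at 7.27, 11.92 and 13.72 in animals with later tumors and at 6.52, 7.47 and 8.22 in those without. Of the animals with later tumors 9 lay above every animal without, the exception being tamoxifen animal 1. Csn1s1 rose by 4.15 (SE 0.61, adjusted p = 0.0123), and by 3.48 (SE 0.57, adjusted p = 0.0703) with treatment in the model. Among placebo animals the ranges were 10.89 to 13.72 with a later tumor and 6.52 to 8.19 without, and did not meet. Among tamoxifen animals they were 7.27 to 10.64 and 6.80 to 8.22, and overlapped through animal 1. Csn1s1 was called in all 20 fits that left out 1 animal.

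The beta-casein gene Csn2 was read at 5.56, 12.91 and 14.13 with a later tumor and at 5.18, 5.88 and 9.45 without. Here 8 of 10 animals with later tumors lay above all those without, and placebo animal 3 was the high animal without a tumor. Csn2 rose by 5.31 (SE 0.91, adjusted p = 0.0239), and the difference was 4.26 (SE 0.83, adjusted p = 0.128) with treatment. Csn1s2a, another alpha-casein gene, was read at 4.81, 11.74 and 13.97 against 4.88, 5.22 and 7.79, and rose by 5.28 (SE 0.92, adjusted p = 0.0239). Its lowest value of all 20 glands came from an animal with a later tumor, tamoxifen animal 1. Other Csn1s2a probe sets that passed the filter differed by 5.39 (mean 8.07) and by 1.43 (mean 5.20). Csn3, the kappa-casein gene, was read at 11.38, 12.82 and 14.03 against 10.59, 11.16 and 12.09, and rose by 1.51 (SE 0.27, adjusted p = 0.0246). For Csn2 and Csn1s2a the median without a tumor was under the filter level of 6.85, which leaves the size of both folds uncertain. Csn1s2a exceeded that level in 10 glands, and placebo animal 3 was the only animal without a tumor among them. It thus met the filter of 3 arrays only because of animals with later tumors, and its call carries less weight. Of the 5 caseins listed 4 passed the filter and all 4 were called, while Csn1s2b did not pass the filter. Without placebo animals 7, 8 and 9 the median difference of the 4 was 3.72, against 4.72 with them.

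The 4 called caseins lie on mouse chromosome 5 (assembly GRCm38.p6), with Csn1s1 at chr5:87666208-87682578, Csn2 at chr5:87692619-87699429, Csn1s2a at chr5:87774450-87788798 and Csn3 at chr5:87925579-87932550. Because these neighbours moved together, the promoters at hand for called genes were searched on both strands for TTCNNNGAA, the palindrome that Stat proteins bind. RefSeq windows from 250 bases before to 50 bases after a gene's start were at hand for 24 of the 29 called genes. Csn3, Btn1a1, Cacna1g, Lamc3 and Osr1 had no window and were not searched. The palindrome stood in a window of 5 of the 24, Csn1s1, Csn2, Csn1s2a, Aldoc and Bdnf, and in a window of 9.55% of all 27025 genes. By window it stood in 5 of the 36 of called genes and in 8.30% of all 32851. No window of a called gene held the oestrogen response element, which stood in 0.07% of all windows. The 250 bases before the start of Csn1s1 (chr5:87665958-87666207, plus strand) and of Csn2 (chr5:87699426-87699675, minus strand) are shown because these 2 caseins carry the palindrome at nearly the same place. Capitals mark it, at -100 to -92 in Csn1s1 and at -93 to -85 in Csn2, and in Csn1s2a it lay after the start, at 21 to 29.
Csn1s1: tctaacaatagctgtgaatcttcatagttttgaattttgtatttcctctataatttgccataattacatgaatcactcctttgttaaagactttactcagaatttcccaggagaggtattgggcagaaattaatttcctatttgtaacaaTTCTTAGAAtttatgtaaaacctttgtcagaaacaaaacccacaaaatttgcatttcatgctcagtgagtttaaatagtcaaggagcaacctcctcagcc
Csn2: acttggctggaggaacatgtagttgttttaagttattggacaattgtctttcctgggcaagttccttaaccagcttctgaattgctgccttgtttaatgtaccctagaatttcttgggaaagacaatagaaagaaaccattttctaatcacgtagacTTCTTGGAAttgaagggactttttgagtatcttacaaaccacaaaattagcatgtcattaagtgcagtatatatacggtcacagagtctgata
A match of letters is a description of the sequence, and binding was not measured here.

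Genes of whey and the milk fat globule had higher means too for 12 of 13 tested, and 1 was called. Btn1a1, a membrane protein of the milk fat globule, was read at 7.72, 9.62 and 10.82 against 7.10, 8.25 and 8.89. All but tamoxifen animal 1 of the later tumor group lay above every animal without a tumor. Btn1a1 rose by 1.54 (SE 0.31, adjusted p = 0.0456), with a difference of 1.15 (SE 0.28) in the fit with treatment. Muc15, a mucin of the same membrane, differed by 2.21 (SE 0.50, adjusted p = 0.059), and Wfdc18, a secreted whey acidic protein relative, by 1.93 (SE 0.48, adjusted p = 0.0772). At an unadjusted p under 0.05 stood 10 of the 13, all higher, and 7 with treatment. The list's median difference was 0.97, 0.74 with treatment, and 0.62 without placebo animals 7, 8 and 9. It was 1.21 among placebo and 0.16 among tamoxifen animals.

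Among regulators of the alveolar fate, 1 of 12 tested genes was called. Elf5, a transcription factor of luminal progenitors and alveolar cells, was read at 8.94, 9.71 and 11.90 with a later tumor and at 7.51, 8.40 and 9.30 without. Of the animals with later tumors 7 lay above all those without, and the 3 tamoxifen animals with tumors, at 8.94 to 9.11, lay among the upper values of the other group. Elf5 rose by 1.71 (SE 0.36, adjusted p = 0.0456), and a weaker probe set with a mean of 6.47 differed by 0.56. Stat5a, which carries the prolactin signal, differed by 0.25 (SE 0.08, adjusted p = 0.138), and Gata3, a luminal transcription factor, by 0.61 (SE 0.18, adjusted p = 0.108). The median of the 12 was 0.19, and 0.04 without placebo animals 7, 8 and 9. Among 14 tested transporters of milk minerals and nutrients 0 were called and 4 stood higher at an unadjusted p under 0.05. The nucleoside carrier Slc28a3 differed most among them by its test (1.26, SE 0.28, adjusted p = 0.059). Their median was 0.11, and 0.03 without those 3 animals.

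Tph1, the first enzyme of serotonin synthesis outside the brain, was called in a list of 4 tested serotonin genes. It was read at 6.75, 8.24 and 9.91 against 5.56, 6.40 and 7.58. The highest value came from tamoxifen animal 10, and 7 of 10 animals with later tumors lay above all those without. Tph1 rose by 1.76 (SE 0.37, adjusted p = 0.0476), and its differences were 1.28 among placebo and 1.81 among tamoxifen animals. Its median without a tumor was also under 6.85, which leaves its fold uncertain. The other 3 members, Maoa (0.13), Htr1b (0.03) and Slc6a4 (-0.00), had adjusted p from 0.321 to 0.994.

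Cxcl15, a secreted chemokine, and Lcn2, a lipocalin that binds iron carriers, also rose. Lcn2 is the mouse counterpart of the rat gene whose promoter drives the transgene. It was read at 9.89, 10.80 and 12.38 against 8.74, 9.43 and 10.31, and rose by 1.36 (SE 0.27, adjusted p = 0.0431). Only tamoxifen animal 1 of the later tumor group lay within the range of the others. Cxcl15 was read at 7.93, 9.20 and 10.49 against 6.26, 6.86 and 8.79, and rose by 2.03 (SE 0.36, adjusted p = 0.0239). All 10 animals with later tumors lay above the median of those without, and 6 lay above all of them. Its differences were 1.19 among placebo and 1.98 among tamoxifen animals. A weaker Cxcl15 probe set with a mean of 6.79 differed by 0.91. Of 11 tested genes of epithelial defence and the acute phase, Lcn2 was the 1 called, and 4 stood higher and 1 lower at an unadjusted p under 0.05. The protease inhibitor gene Slpi differed by 1.02 (SE 0.30, adjusted p = 0.112) and the endotoxin receptor gene Cd14 by 0.63 (SE 0.15, adjusted p = 0.0699).

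**Figure D2:**
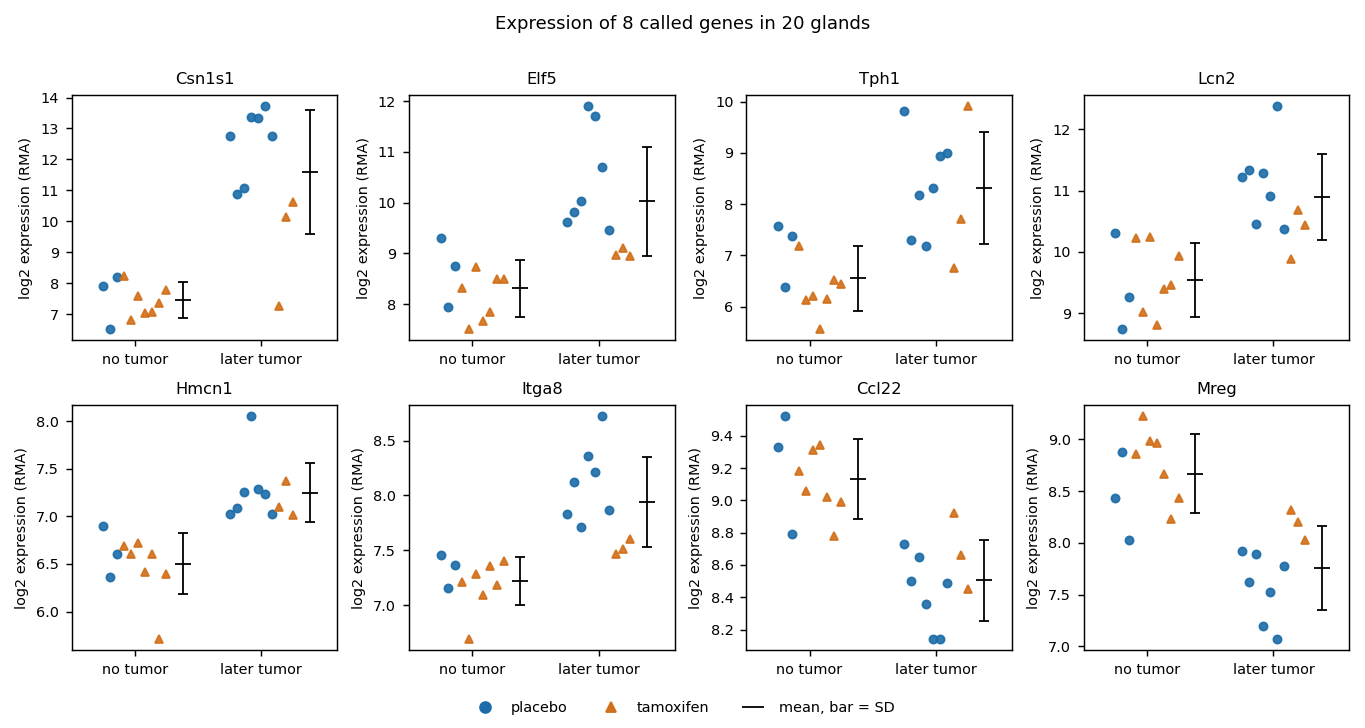
Log2 expression of 8 called genes is plotted for each of the 20 glands by outcome, with placebo animals as circles and tamoxifen animals as triangles, and the mean and SD of each group of 10 beside the points. The vertical axes differ between panels and do not start at 0. Hmcn1 and Itga8 show no overlap between the outcome groups, and in the Csn1s1 panel tamoxifen animal 1 is the single animal with a later tumor among those without.

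General epithelial genes had higher means with a later tumor, although 0 of 15 tested passed the adjusted threshold. At an unadjusted p under 0.05 stood 11 of the 15, all higher, and 11 also with treatment, and all 15 differences were above 0. Epcam was read at 10.19, 10.96 and 12.33 against 9.58, 10.16 and 10.67, and differed by 1.04 (SE 0.22, adjusted p = 0.0528). Of the animals with later tumors 8 lay above all those without. Luminal keratin genes differed by 0.81 (Krt18, SE 0.19, adjusted p = 0.062) and 1.02 (Krt19, SE 0.23, adjusted p = 0.0616). The list's median difference was 0.75, 0.60 with treatment, and 0.38 without placebo animals 7, 8 and 9. Its mean level ran over 8.74, 9.10 and 10.06 with a later tumor and 8.15, 8.62 and 9.07 without. With that mean as a covariate 1 gene passed and 0 of the 29 remained called, though all 29 kept their direction. Csn1s1 then differed by 2.36 (SE 0.60, adjusted p = 0.956), Cxcl15 by 1.89 (SE 0.49) and Elf5 by 0.35 (SE 0.20). The gene that passed was the immediate early gene Fos, at 1.44 (SE 0.22, adjusted p = 0.029).

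By epithelial layer, luminal progenitor genes had 2 called of 13 tested, Elf5 and Lcn2, and a median difference of 0.46, with 7 of 13 higher at an unadjusted p under 0.05. Plet1, a surface marker of these progenitors, differed by 1.53 (SE 0.33, adjusted p = 0.0528). Kit, a receptor on the same cells, differed by 0.46 (SE 0.16, adjusted p = 0.155). Without placebo animals 7, 8 and 9 the list's median was 0.14. Of 10 tested mature luminal genes 0 were called, 3 were higher at an unadjusted p under 0.05, and the median was 0.24 (0.14 without those 3 animals). The pioneer factor gene Foxa1 differed by 0.56 (SE 0.16, adjusted p = 0.104), the oestrogen receptor gene Esr1 by 0.26 (SE 0.14, adjusted p = 0.357) and the progesterone receptor gene Pgr by -0.09 (SE 0.24, adjusted p = 0.889). Basal and myoepithelial genes had 0 called of 13, with 9 higher and 1 lower at an unadjusted p under 0.05 and a median of 0.30 (0.17 without those animals). Among them were Cnn1 of smooth muscle (0.49, SE 0.15, adjusted p = 0.121) and the basal keratin gene Krt5 (0.60, SE 0.22, adjusted p = 0.177). All 10 tested tight junction and connexin genes had differences above 0 and 0 were called, with Cldn8 at 1.10 (SE 0.30, adjusted p = 0.0937).

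Of the lists of matrix genes, 1 held called genes, and 4 other called genes encode adhesion or laminin proteins that no list holds. Hmcn1, a large extracellular matrix protein, was read at 7.01, 7.17 and 8.05 against 5.71, 6.61 and 6.90. The groups did not overlap. Hmcn1 rose by 0.75 (SE 0.13, adjusted p = 0.0246), and its median without a tumor was under the filter level, so its fold is uncertain too. It exceeded that level in 11 glands, and placebo animal 3 (6.90) was the only animal without a tumor among them. Hmcn1 thus met the filter of 3 arrays only because of animals with later tumors, so its call and lack of overlap carry less weight. Postn, the matrix protein periostin, was read at 12.03, 12.53 and 13.23 against 11.21, 11.57 and 12.63, and rose by 0.81 (SE 0.17, adjusted p = 0.0456). Placebo animal 3, without a tumor, lay above the median of the later tumor group. The difference was 0.33 among placebo and 0.94 among tamoxifen animals.

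Itga8 and Itgav encode integrin alpha subunits, which bind matrix proteins as parts of receptor pairs. Itga8 was read at 7.47, 7.85 and 8.72 against 6.69, 7.24 and 7.46, without overlap, and rose by 0.72 (SE 0.14, adjusted p = 0.0358). With treatment the difference was 0.57 (SE 0.13, adjusted p = 0.239). Itgav was read at 10.34, 10.47 and 10.82 against 10.01, 10.21 and 10.36, and rose by 0.30 (SE 0.06, adjusted p = 0.0456). Of the animals with later tumors 8 lay above all those without. Laminin chain genes Lama2 and Lamc3, of basement membranes, rose by 0.46 (SE 0.10) and 0.45 (SE 0.09), both with an adjusted p of 0.0456. Of 15 tested matricellular and basement membrane genes 2 were called, Hmcn1 and Postn, and 8 stood higher and 1 lower at an unadjusted p under 0.05. Their median was 0.17, and 0.08 without placebo animals 7, 8 and 9. The lower one, Thbs2, an angiogenesis inhibitor, differed by -0.63 (SE 0.15, adjusted p = 0.0699). Of 17 tested fibroblast and fibrillar matrix genes 0 were called, 6 were higher at an unadjusted p under 0.05, and 16 had differences above 0, with a median of 0.17 on both fits. The fibronectin gene Fn1 differed by 0.62 (SE 0.14, adjusted p = 0.059), and the proteoglycan gene Lum by 0.42 (SE 0.11, adjusted p = 0.0916).

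Several called genes are known from mesenchymal cells and from growth control. Osr1, a transcription factor of mesenchyme, was read at 8.83, 9.0 and 9.67 against 8.23, 8.54 and 8.89, and rose by 0.57 (SE 0.11, adjusted p = 0.0339). All but 1 animal with a later tumor, placebo animal 10, lay above every animal without. Gas1, a surface protein that modulates hedgehog signals, rose by 0.53 (SE 0.11), with 6 of 10 animals above all those without. Other Gas1 probe sets that passed the filter differed by 0.54 (mean 8.67) and by 0.07 (mean 6.81). Srpx, a sushi-repeat protein, rose by 0.66 (SE 0.13), and its differences were 0.39 among placebo and 0.62 among tamoxifen animals. Itm2a, a membrane protein, rose by 0.69 (SE 0.14), and 2 of 10 animals lay above all those without. For Gas1, Srpx and Itm2a, placebo animal 3 was the highest animal without a tumor, as it was for Csn2, Elf5 and Postn. Of 7 tested hedgehog and Hippo target genes 0 were called, and Gli2, a transcription factor of the hedgehog pathway, differed by 0.20 (SE 0.06, adjusted p = 0.107).

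The other called genes that rose have varied roles. Aldoc, an aldolase of glycolysis, was read at 8.70, 9.42 and 10.63 against 8.31, 8.56 and 9.03, and rose by 0.94 (SE 0.19, adjusted p = 0.0431). It was the 1 called of 15 tested glycolysis genes, whose median difference was -0.02. Slc35f3, a solute carrier, was read at 6.10, 6.65 and 7.28 against 5.87, 5.96 and 6.50, and rose by 0.71 (SE 0.12, adjusted p = 0.0237). Its values lay below the filter level in all 10 animals without a tumor, so the size of its fold is uncertain. It exceeded that level in 4 glands only, those of placebo animals 4, 7, 8 and 9, all with later tumors. Slc35f3 thus entered the test only through the group where it was high, and its call carries less weight. Tnfrsf21, a death receptor, rose by 0.68 (SE 0.13, adjusted p = 0.0358). Smaller rises were those of Plekhh1 (0.36), Cacna1g, a calcium channel subunit (0.31), and Bdnf, a neurotrophin (0.21), at levels from 6.66 to 8.21 over the 20 glands, Cacna1g with a median without a tumor under 6.85.

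The 4 genes that fell were Mreg, Ccl22, Nudt17 and Glud1. Ccl22, a chemokine of dendritic cells that attracts T cells, was read at 8.14, 8.49 and 8.92 with a later tumor and at 8.78, 9.12 and 9.52 without. Of the animals with later tumors 9 lay below all those without, and tamoxifen animal 1 was the exception. Ccl22 fell by 0.63 (SE 0.10, adjusted p = 0.0237), and the difference was -0.60 (SE 0.12, adjusted p = 0.128) with treatment. Mreg, melanoregulin, a protein of organelle transport, was read at 7.07, 7.84 and 8.32 against 8.03, 8.76 and 9.22. It fell by 0.91 (SE 0.16, adjusted p = 0.0246), and 7 of 10 animals lay below all those without.

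Glud1, the mitochondrial glutamate dehydrogenase, was read at 11.17, 11.41 and 11.55 against 11.48, 11.66 and 11.80, and fell by 0.25 (SE 0.05, adjusted p = 0.0476). Nudt17, a hydrolase of the Nudix family, fell by 0.31 (SE 0.06, adjusted p = 0.0456), with 8 of 10 animals below all those without. With a term for the 2 runs of outcome numbers (1 to 5 and 6 to 10, which the labels do not call a batch) beside treatment, 6 genes passed. They were Csn1s1 and Ccl22 (both adjusted p = 0.00732), Mreg (0.00878), Slc35f3 (0.0291), Csn2 (0.0316) and Csn1s2a (0.0423). Of these, Slc35f3 and Csn1s2a had passed the filter only because of animals with later tumors. Within each run the difference had the same direction for all 29 genes, with Csn1s1 at 3.02 and 5.28 and Ccl22 at -0.59 and -0.67. The runs are parts of the animals by which the 29 were chosen, so this shared direction is no independent support.

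Outcome groups did not overlap for 4 of the genes tested. Higher in every animal with a later tumor were Hmcn1, Itga8 and Tgfa (0.024% of genes), and lower in every one was Ppp1r15a (0.008%). Of these, Hmcn1 had passed the filter only because of animals with later tumors. Tgfa, the mouse gene that matches the transgene product, was read at 8.22, 8.63 and 10.27 against 7.64, 7.89 and 8.17, a difference of 1.11 (SE 0.24, adjusted p = 0.052). Within treatments the difference was 1.41 among placebo and 0.43 among tamoxifen animals. Without placebo animals 7, 8 and 9 it was 0.64, and passed (adjusted p = 0.0268). The 2 other Tgfa probe sets that passed the filter differed by 0.17 (mean 7.46) and -0.14 (mean 6.71), so the difference rests on 1 probe set. The sources used here do not say which of them reads the transgene. Ppp1r15a, a phosphatase subunit of the stress response, was read at 8.58, 8.92 and 8.97 against 8.97, 9.12 and 9.34, with a difference of -0.27 (SE 0.06, adjusted p = 0.0549), and the groups came within the second decimal of each other. With median-centred arrays 1 gene was without overlap.

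Of 7 tested genes of the EGF receptor family and its ligands, Tgfa included, 0 were called and 3 were higher at an unadjusted p under 0.05, with a median of 0.04. The receptor genes Erbb3 and Erbb2 differed by 0.57 (SE 0.17, adjusted p = 0.125) and 0.21 (SE 0.09, adjusted p = 0.282), and the ligand gene Btc by -0.12 (SE 0.06, adjusted p = 0.351). Of 14 feedback targets of the EGF receptor and MAP kinases 0 were called, and 4 were higher at an unadjusted p under 0.05 without the covariate and 0 with it. Immediate early genes were mixed, with 3 of 11 higher and 2 lower at an unadjusted p under 0.05. Fos was read at 8.44, 9.50 and 10.38 against 8.04, 8.52 and 9.08, a difference of 0.88 (SE 0.21, adjusted p = 0.0712), while the nuclear receptor gene Nr4a1 differed by -0.67 (SE 0.26, adjusted p = 0.204). In the Wnt pathway 13 of 20 differences were above 0 and 0 genes were called, with 8 higher and 2 lower at an unadjusted p under 0.05. Sfrp2, a secreted modulator, differed by 1.08 (SE 0.24, adjusted p = 0.059), the ligand gene Wnt2 by 0.64 (SE 0.17, adjusted p = 0.0916) and the transcription factor gene Lef1 by -0.50 (SE 0.14, adjusted p = 0.101).

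Cell division genes were all higher in the mean, with 14 of 14 differences above 0, 9 at an unadjusted p under 0.05 and 0 called. The median was 0.54, 0.50 with treatment (3 of 14), and 0.22 without placebo animals 7, 8 and 9. Mki67, a marker of dividing cells, was read at 7.07, 8.03 and 10.77 against 6.92, 7.45 and 8.11, and differed by 0.79 (SE 0.33, adjusted p = 0.228). The groups overlapped for 5 of 10 animals with later tumors, and placebo animal 8 held the highest value. Within outcome numbers 1 to 5 Mki67 differed by -0.13, and within 6 to 10 by 1.72. For Top2a, Rrm2 and Cdk1 of the same list the differences were 0.03, -0.01 and 0.09 within 1 to 5. Within 6 to 10 they were 1.54, 1.54 and 1.24. Of 20 chaperone and unfolded protein response genes 15 had differences above 0, 11 of them at an unadjusted p under 0.05, and 0 were called. Their median was 0.17, and 0.11 without placebo animals 7, 8 and 9. Xbp1, a transcription factor of secretory cells, was read at 12.12, 12.41 and 12.79 against 11.87, 12.09 and 12.24 (difference 0.31, SE 0.07, adjusted p = 0.0617). Of 20 proteasome, 12 ribosomal protein, 11 heat shock and 12 hypoxia target genes, 0 were called and 0 had an unadjusted p under 0.05.

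Lymphocyte genes ran the other way. All 12 tested T cell genes had differences below 0, 11 of them at an unadjusted p under 0.05 and 6 with treatment, with 0 called. The list's median was -0.43, -0.28 with treatment, -0.50 among placebo and -0.06 among tamoxifen animals, and -0.26 without placebo animals 7, 8 and 9. Ccr7, which guides T cells and dendritic cells to lymph nodes, was read at 8.69, 9.36 and 9.69 against 9.20, 9.83 and 10.41. It differed by -0.58 (SE 0.16, adjusted p = 0.0947), and the T cell receptor subunit gene Cd3g by -0.46 (SE 0.14, adjusted p = 0.128). All 12 B cell genes also had differences below 0, with 5 at an unadjusted p under 0.05, 1 with treatment, and a median of -0.28 (-0.18 without those 3 animals). Cd79a, a B cell receptor subunit gene, differed by -0.42 (SE 0.17, adjusted p = 0.219). A number 4 gland normally contains a lymph node, and the sources used here do not say whether it was kept.

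Plasma cell genes had higher means for 8 of 10, with 6 of 10 at an unadjusted p under 0.05 on both fits, 0 called, and medians of 0.27 and 0.34. The list's difference was alike among placebo (0.31) and tamoxifen animals (0.33). Igha, the heavy chain gene of IgA antibodies, was read at 9.68, 11.55 and 12.42 against 9.07, 10.25 and 11.56 and differed by 1.07 (SE 0.31, adjusted p = 0.111). The groups overlapped for 5 of the 10 animals with later tumors. Xbp1 and Sdc1 (0.68, SE 0.24, adjusted p = 0.155) belong to this list and are also made by epithelium. Of the dendritic cell and MHC class II genes, 13 of 13 had differences below 0 and Ccl22 was the 1 called, with a median of -0.15. None of 14 macrophage and 14 interferon response genes had an unadjusted p under 0.05, and their medians were 0.03 and -0.04. Of 10 cytotoxic cell genes 7 had differences at or below 0, 3 of them at an unadjusted p under 0.05, and 0 were called. Among the 3 was Ccl5, a chemokine of T and natural killer cells (-0.49, SE 0.15, adjusted p = 0.121).

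Most mitochondrial genes had lower means in glands with later tumors. Fatty acid oxidation genes had 7 of 15 lower at an unadjusted p under 0.05, 3 with treatment and 0 called, with a median of -0.25. Ppara, a nuclear receptor that drives this pathway, differed by -0.51 (SE 0.18, adjusted p = 0.151), and the dehydrogenase gene Acadm by -0.26 (SE 0.09, adjusted p = 0.162). In the citrate cycle list 12 of 14 differences were at or below 0, 6 genes were lower and 1 higher at an unadjusted p under 0.05, and Glud1 was the 1 called. All 20 respiratory chain genes had differences below 0, 4 at an unadjusted p under 0.05 and 0 with treatment, with a median of -0.15. Among placebo animals the medians of the oxidation, citrate cycle and respiratory lists were -0.45, -0.32 and -0.22. Among tamoxifen animals they were 0.02, 0.00 and -0.02. These differences between treatments were not tested list by list. Over both treatments, without placebo animals 7, 8 and 9, the medians were -0.17, -0.13 and -0.07.

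Of 10 brown adipocyte genes 9 had differences at or below 0, 5 of them at an unadjusted p under 0.05, with 0 called and a median of -0.36. The coactivator gene Ppargc1a differed by -0.72 (SE 0.31, adjusted p = 0.255), and the median was -0.72 among placebo and 0.02 among tamoxifen animals. White adipocyte genes had a median of -0.13 (-0.05 without placebo animals 7, 8 and 9), with 12 of 13 differences at or below 0 and 3 at an unadjusted p under 0.05, and Adipoq differed by -0.06 (SE 0.05, adjusted p = 0.595). Their mean level ran over 12.02, 12.55 and 12.72 with a later tumor and 12.35, 12.70 and 12.94 without. Both fat lists had medians below 0, as the mitochondrial lists had, but whether they vary together from gland to gland was not computed. The part of fat markers in the mitochondrial differences was not tested. In the plot of list levels, 2 of the 3 placebo animals without tumors stand high for brown adipocyte and oxidation genes.

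**Figure D3:**
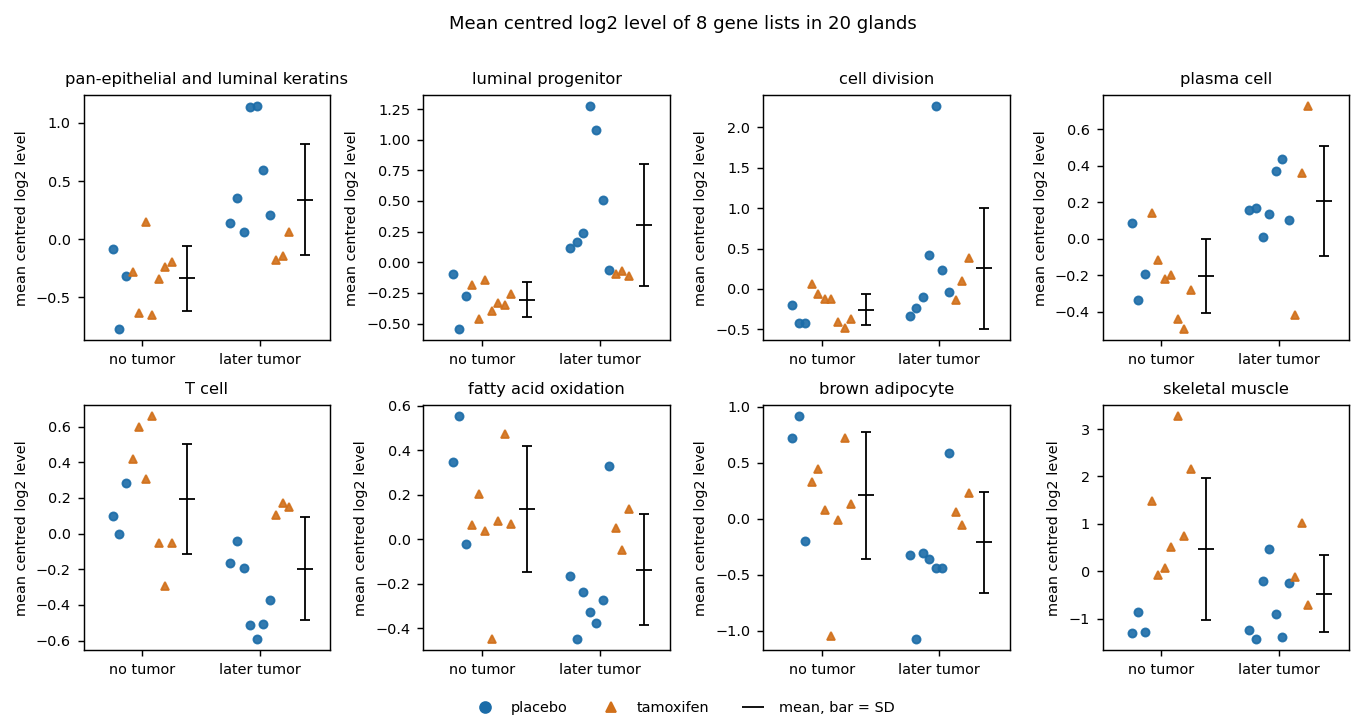
Mean log2 level of 8 gene lists is plotted for each of the 20 glands by outcome, each gene first centred on its mean over the glands, with the group mean and SD beside the points. Circles are placebo and triangles tamoxifen animals, and the axes differ between panels. Placebo animal 8 stands alone in the cell division panel, and the skeletal muscle panel is spread widest among tamoxifen animals without a tumor.

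Skeletal muscle genes had the lowest median of any list, -1.06, which was -0.33 with treatment in the model. All 15 tested were lower with a later tumor, 3 at an unadjusted p under 0.05, and 0 were called. Their mean level ran over 6.29, 7.24 and 8.74 with a later tumor and 6.43, 8.01 and 10.98 without, so the groups overlapped broadly. Among placebo animals 13 of 15 were higher with a later tumor (median 0.38), and among tamoxifen animals all 15 were lower (median -1.29). The actin gene of skeletal muscle, Acta1, differed by -1.70 (SE 0.79, adjusted p = 0.292). With the muscle list's mean as a covariate 0 genes passed for the outcome. The part of muscle RNA in the other differences was not tested beyond this.

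Among the remaining lists, circadian clock genes had lower means with a later tumor, with a median of -0.14 (-0.12 without placebo animals 7, 8 and 9). Of these genes 13 of 13 had differences at or below 0 and 0 were called. At an unadjusted p under 0.05, 2 were lower, among them Per1 (-0.27, SE 0.11, adjusted p = 0.219). Of 14 endothelial genes 9 had differences at or below 0, and 1 was lower at an unadjusted p under 0.05 (4 with treatment), with Pecam1 at -0.16 (SE 0.05, adjusted p = 0.132). Medians were 0.06 for fatty acid synthesis and for cholesterol synthesis, 0.11 for the insulin and IGF axis, 0.08 for Notch, -0.01 for TGF beta and BMP and -0.07 for p53 targets, with 0 called in each. Fads2, a desaturase, differed by 0.59 (SE 0.15, adjusted p = 0.0814), and Plk2, a p53 target kinase, by 0.47 (SE 0.11, adjusted p = 0.0696).

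**Figure D4:**
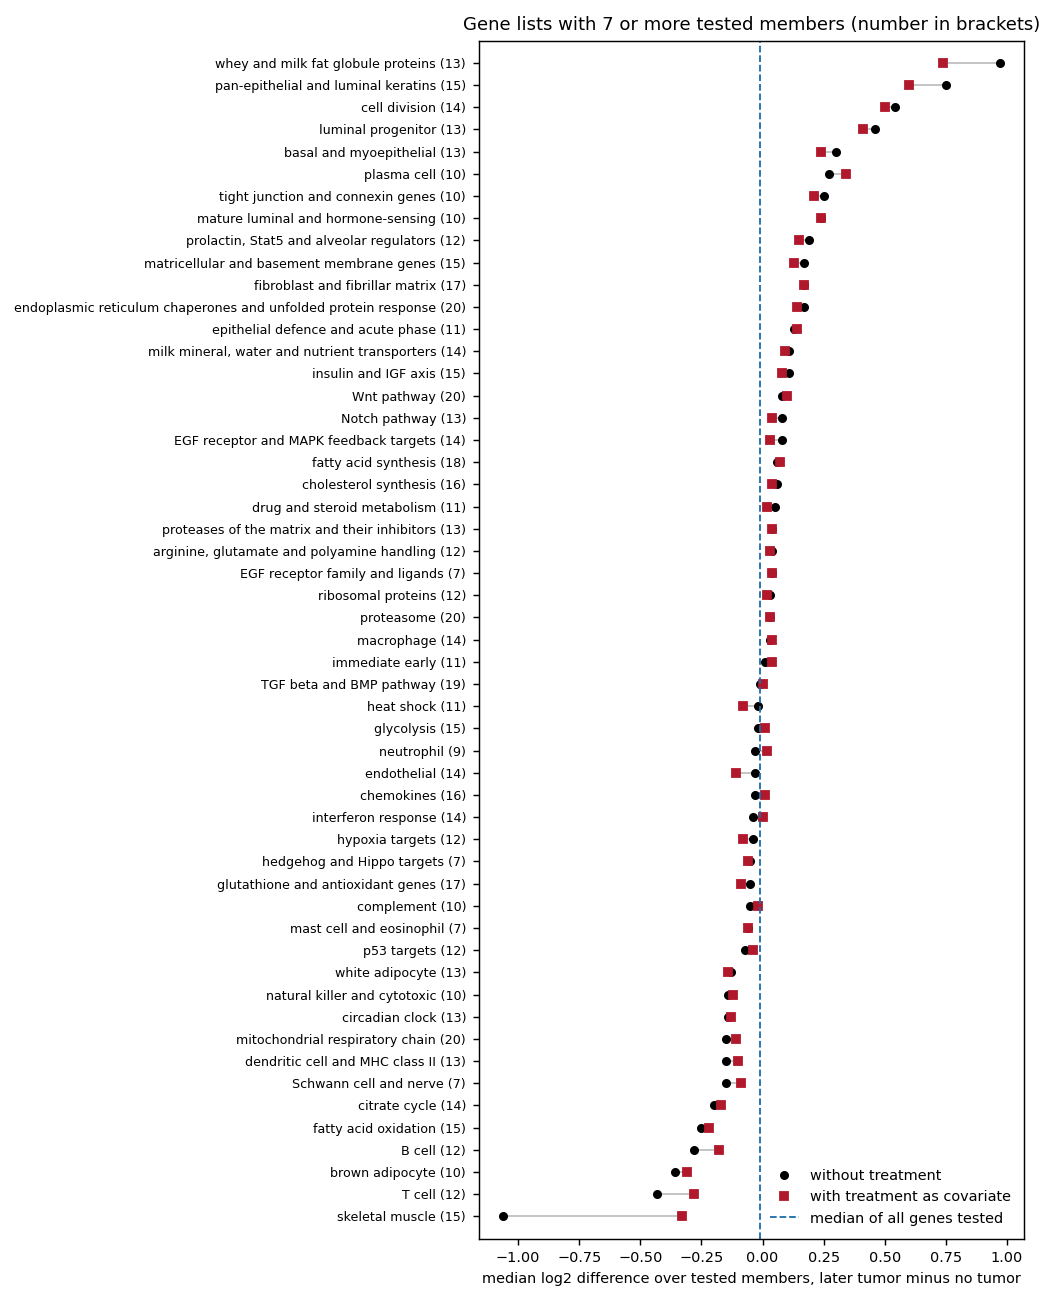
Median log2 difference, later tumor minus no tumor, over the tested members of each gene list with 7 or more of them, without treatment in the model (circles) and with it (squares). The dashed line is the median of all genes tested (-0.01). The caseins, with 4 tested members and a median of 4.72, and other small lists are left out. Milk fat globule, epithelial and cell division lists stand highest, and T cell and skeletal muscle lists lowest.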

How the data were processed

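Total RNA of 1 mammary gland per animal was read on Affymetrix mouse arrays, per the labels. The authors deposited log2 expression values per probe set, which the submitters' processing notes credit to RMA, and the sources used here name no software version or genome build. RMA sets all arrays on 1 scale, so only relative changes can be read. The values were used as deposited. Of 45101 probe sets, 34958 carried 1 gene symbol in the platform annotation (an older release), 932 several and 9211 none. This gave 18194 genes, read from the probe set of highest mean level. Tested were the 12499 genes that exceeded 6.85 (the overall median) on 3 or more arrays.

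The outcome was tested in R 4.3.3 with limma 3.58.1 (lmFit, eBayes, two-sided, Benjamini-Hochberg over all genes tested). The procedure was also run on simulated data, drawn as independent normal values for each gene. These held no treatment effect and no outlying animals, so that run cannot show how the procedure behaves where the real glands have both. Replicates are separate animals, and the number of arrays limits the precision. Named were all genes past the threshold, those without overlap between groups, 15 genes with the smallest p in the fit with treatment, up to 4 members per list by their moderated statistic, and a fixed set with Tgfa, Esr1, Pgr, Kit, Krt18, Mki67, Adipoq and Ckm. The 59 lists hold 865 genes, 793 with a probe set. Members, lists and alternatives were chosen with earlier results of these data known. Promoter sequences are RefSeq's on GRCm38.p6.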

Additional observations from a re-analysis of the deposited data

Results flagged for a closer look

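In 15 of 202 groups of 10 animals (42 genes and 59 list means, by outcome), 1 animal stood farther from the rest than the critical value of Dixon's gap test allows, and chance gives about 1 in 20.

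Placebo animal 3, without a tumor, was high for caseins. It stood at 9.45 for Csn2 (others 5.18 to 7.32), at 7.79 for Csn1s2a (others 4.88 to 6.02) and at 8.42 for the mean of the casein list (others 6.55 to 7.49). Placebo animal 6, also without a tumor, was high for Slc35f3, at 6.50 (others 5.87 to 6.09). Among the other animals without tumors, tamoxifen animal 8 was low for Hmcn1, at 5.71 (others 6.36 to 6.90), and tamoxifen animal 4 was low for Itga8, at 6.69 (others 7.09 to 7.46).

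Among animals with later tumors, placebo animal 8 was high for Mki67, at 10.77 (others 7.07 to 8.71), for the cell division list, at 9.72 (others 7.13 to 7.88), and for the proteasome list, at 11.42 (others 10.98 to 11.14). The same gland was low for the macrophage list, at 9.31 (others 9.91 to 10.30), and for the interferon response list, at 7.70 (others 8.16 to 8.64). Placebo animal 7 was high for Hmcn1, at 8.05 (others 7.01 to 7.37), and for Kit, at 10.38 (others 8.72 to 9.52). Placebo animal 9 was high for the epithelial defence and acute phase list, at 10.06 (others 8.57 to 9.09), and placebo animal 10 for the glycolysis list, at 11.28 (others 10.91 to 11.08).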

How the results depend on the processing

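None of the 29 called genes changed direction under the alternatives run, but the count for the outcome moved widely. It was 11 with median-centred arrays, 14 without the filter (more genes tested), 0 without moderated variances, 45 with a term for the runs of numbers, 14 without placebo animals 7 and 8, 7 without animals 7, 8 and 9 (fewer animals), 1 with the pan-epithelial mean and 0 with the skeletal muscle mean as a covariate. It stayed between 22 and 41 with quantile normalization, a stricter filter, the mean of all probe sets, trend and robust settings or array weights. Leaving out 1 animal gave 1 to 118, with at most 14 when placebo animals 1, 2, 4, 5, 8, 9 and tamoxifen animals 3 to 9 were each dropped, and at least 81 when placebo animal 3 and tamoxifen animals 1, 2 and 10 were. With treatment in the model 0 genes passed, 6 with the term for runs, and 0 to 6 without 1 animal (4 without placebo animal 2, 6 without tamoxifen animal 1). For the interaction 0 passed, 1 (Gng12) with array weights, and 0 to 3 without 1 animal (3 without tamoxifen animal 3). Genes without overlap numbered 4, 1 with median-centred arrays, and 4 to 21 without 1 animal (21 without placebo animal 3, 11 and 8 without tamoxifen animals 1 and 2, 8 without tamoxifen animal 5). The brackets on more genes tested and on fewer animals say only what else changed in those fits. The cause of these shifts was not tested.

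Deviations of animals with the same outcome number correlated from -0.173 to 0.327. Differently numbered animals were not set beside them, so these values do not decide whether the numbers pair the animals. With the replicate block 35 genes passed, and 0 with treatment added. Genes near the filter level, such as Slc35f3 and Hmcn1, are the least well measured.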

Other observations

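Of 11 tested genes that metabolise drugs and steroids, the list median was 0.08 among placebo and 0.06 among tamoxifen animals, and Akr1cl is singled out after its values were seen. Akr1cl, an aldo-keto reductase, was read at 7.62 to 8.78 in placebo animals with later tumors and at 7.73 to 8.17 in placebo animals without. Among tamoxifen animals it was read at 8.31 to 9.55 with a later tumor and at 10.06 to 12.57 without, and these ranges did not meet. The outcome difference was -2.25 (SE 0.60, adjusted p = 0.0916), and -1.30 (SE 0.41, adjusted p = 0.427) with treatment. Its unadjusted interaction p was 5.8e-05, which did not pass over all genes, except in the fit without tamoxifen animal 3, where Akr1cl (adjusted p = 0.00383), Oxtr, the oxytocin receptor gene (0.0271), and Zfp469 (0.00982) passed.

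Without placebo animals 7, 8 and 9, 6 genes passed that were not among the 29. They were Fos (1.09, SE 0.20), Tfap2c, a transcription factor of luminal cells (0.82, SE 0.15), Tgfa (0.64, SE 0.09), Il17b, a cytokine (0.53, SE 0.09), Fbxo32, a ubiquitin ligase subunit (0.43, SE 0.08), and Fibin (0.40, SE 0.07). The adjusted p was 0.0268 for Tgfa and 0.0458 for the other 5.

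Arg2, a mitochondrial arginase, differed by 1.08 (SE 0.26, adjusted p = 0.0699), and Cthrc1, a secreted matrix protein, by 0.92 (SE 0.20, adjusted p = 0.0528). Mmp3, a matrix protease, differed by 0.79 (SE 0.24, adjusted p = 0.115), with 4 of 13 tested proteases and inhibitors higher at an unadjusted p under 0.05 and 0 called. Reln, a lymphatic endothelial gene, differed by 0.49 (SE 0.15, adjusted p = 0.121), but the median of the 4 tested genes of that list was 0.01, with Flt4 at -0.10 and Mmrn1 at -0.12. S100b of Schwann cells differed by -0.86 (SE 0.29, adjusted p = 0.15). The antioxidant enzyme gene Gpx1 differed by -0.13 (SE 0.04, adjusted p = 0.0997), and 13 of 17 tested genes of its list had differences at or below 0.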
